A study of Homo sapiens with 4 samples.

Results

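Glycolysis turns glucose into pyruvate and then lactate through a chain of abundant enzymes, and 10 of their genes, HK2, GPI, ALDOA, TPI1, GAPDH, PGK1, PGAM1, ENO1, PKM and LDHA, were followed here in maps of where 2 RNA-binding proteins touch RNA. The members were all peaks listed under the NCBI Gene ID of one of these genes, each position counted once. They came to 34 of 63507 PABPC4 peaks and 7 of 9107 HNRNPC peaks. PABPC4 peaks lay under 9 of the 10 genes, beside 61.4% of all protein-coding genes, and HNRNPC peaks under 4, beside 19.8%.

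All 4 samples came from MDA-MB-231, a long-cultured human breast cancer cell line that lacks oestrogen receptor, progesterone receptor and HER2 amplification, and the labels name no treatment. Ultraviolet light at 254 nm and 400 mJ per square centimetre bonded proteins to RNA, an antibody recovered one protein, and the attached fragments were sequenced as tags. HNRNPC, a mostly nuclear protein that binds runs of U, was mapped by irCLIP in 2 samples, and PABPC4, a poly(A)-binding protein found in cytoplasm and nucleus, by PAPERCLIP in 2 samples. The deposited HNRNPC list carries the name of another form of CLIP, and which form gave it was not settled here. There was no comparison between treatments, and both replicates of a protein were pooled into 1 peak list before deposit, so no spread between replicates could be given and no test between genes was made.

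Almost every mRNA is cut at its 3′ end after a poly(A) signal, most often AATAAA or ATTAAA in DNA letters, and receives a poly(A) tail. PAPERCLIP aims at RNA fragments that carry the tail. A peak at an annotated end was read here as a 3′ end that carried PABPC4. Peaks elsewhere need not mark one, and 18 of the 34 member peaks lay in introns. A gene with several poly(A) sites makes mRNAs with short or long 3′ UTRs. These differ in the binding sites for proteins and microRNAs that they keep. The study asked how HNRNPC and PABPC4 bear on the choice among such sites. Glycolysis mRNAs are among the most abundant in proliferating cells, and GAPDH and PGK1 are widely used as reference genes, so their ends were set beside those of the other members.

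Peak height is the number of pooled unique tags at a peak's summit. It can follow mRNA abundance, how much of the mRNA PABPC4 held and other factors, such as A-rich stretches and copies elsewhere in the genome. These cannot be told apart in the list. A 3′ end occurs once per mRNA, so heights at ends were not divided by transcript length. A peak was taken as lying at an annotated 3′ end when its 3′ boundary was within 50 nt of the end of any complete GENCODE transcript of the gene, and the tallest such peak was the gene's main end. A share of a gene's tags means a peak's height as a percent of the summed heights of all its listed peaks. Tags away from the summits are left out of it. Intervals are exact 95% Poisson intervals for heights and exact 95% binomial intervals for shares of tags, and cover counting error only.

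The sequences below are the last 30 nt of the tallest PABPC4 3′ UTR peak of 7 genes, and they show the signal that most of these ends share. Each ends at the 3′ boundary of the peak, except that of GPI, which was shifted to begin at its signal. They were read from GRCh38 on the strand of the gene, and capitals mark AATAAA.
GPI (chr19:34400309-34400338, plus strand): AATAAAgatgccacggaggaggttgtaggc
ALDOA (chr16:30070386-30070415, plus strand): ctgccaAATAAAcagctatttaagggggag
TPI1 (chr12:6870846-6870875, plus strand): cttcactggacttgcccagataatcttcct
GAPDH (chr12:6538344-6538373, plus strand): catcAATAAAgtaccctgtgctcaaccagt
PGK1 (chrX:78126242-78126271, plus strand): gtaaacAATAAAagtgtccattgaaaccgt
ENO1 (chr1:8861000-8861029, minus strand): AATAAAaagcctcagtgacccatgagaata
LDHA (chr11:18407819-18407848, plus strand): taaaacccccAATAAAccttgaacagtgac

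In 6 of these 7 peaks AATAAA was present, and its first base lay 19 to 31 nt before the boundary. TPI1 was the exception, with neither AATAAA nor ATTAAA in the last 40 nt of any of its 3 peaks. Over all 16 member peaks in 3′ UTRs, 8 held AATAAA or ATTAAA in their last 40 nt, beside 46.4% of all PABPC4 3′ UTR peaks, so the members' share was close to that of the list. A match describes the sequence and does not show that the site was used.

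GAPDH, the enzyme that oxidises glyceraldehyde phosphate with NAD+, had the tallest end of the 10 genes and nearly all of its tags there. It had 2 PABPC4 peaks. The main end at chr12:6538240-6538373, in the 3′ UTR of the last exon, had 7950 tags (7776 to 8127). Its boundary lay 203 nt after the stop codon, 1 nt before an annotated end. The other peak, at chr12:6538173-6538236, had 191 tags (165 to 220) and ended 66 nt after the stop codon, with no signal in its last 40 nt. The main end took 97.7% (97.3 to 98.0) of the gene's summed height. Among 8288 protein-coding genes with a peak at an annotated end, GAPDH ranked 2, below VIM (10197 tags), an intermediate filament gene. HMGA1 (7753 tags), a chromatin protein gene, and S100A6 (6673 tags), a calcium-binding protein gene, came next. A high share at the main end was not particular to GAPDH. It was 90.7% for VIM and 100% for HMGA1 and S100A6, and 81.6% of genes with a main end had a share at or below that of GAPDH.

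PGK1, which makes ATP from bisphosphoglycerate, had a lower main end than GAPDH and further 3′ UTR peaks beside it. It had 6 PABPC4 peaks, of which 5 were in the 3′ UTR. Counted from the stop codon, they ended at 241 nt with 57 tags, at 441 nt with 752 tags, at 947 nt with 67 tags, at 1119 nt with 164 tags and at 3464 nt with 78 tags. Those at 441, 1119 and 3464 nt lay within 4 nt of an annotated end and held a poly(A) signal, while the other two held neither signal.
PGK1 at 1119 nt (chrX:78126920-78126949, plus strand): tctcaatatATTAAAacatattgaataatc
PGK1 at 3464 nt (chrX:78129265-78129294, plus strand): atatagatatATTAAAatgtaaatggtggc
The capitals mark ATTAAA at both later ends, whereas the tallest one, printed above, held AATAAA. The tallest end took 65.2% (62.3 to 67.9) of the gene's tags, less than in GAPDH. That was above the median share of 40.2% over all genes with a main end, of which 67.4% had a share at or below it. The annotated end beside it belongs to PGK1-203, a transcript with no coding sequence defined. Counting only the ends of transcripts with a coding sequence, the main end would be the one at 1119 nt, with 164 tags and 14.2% of the gene's tags. The end with the longest 3′ UTR, that of the canonical transcript, held 78 tags (61.7 to 97.3). PGK1 ranked 221 of the 8288 genes by its main end, between MRPS34 (756 tags) and GPX4 (751 tags), with BCL2L1 (763 tags) and SLC1A5 (749 tags) one place farther on either side.

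**Figure D1:**
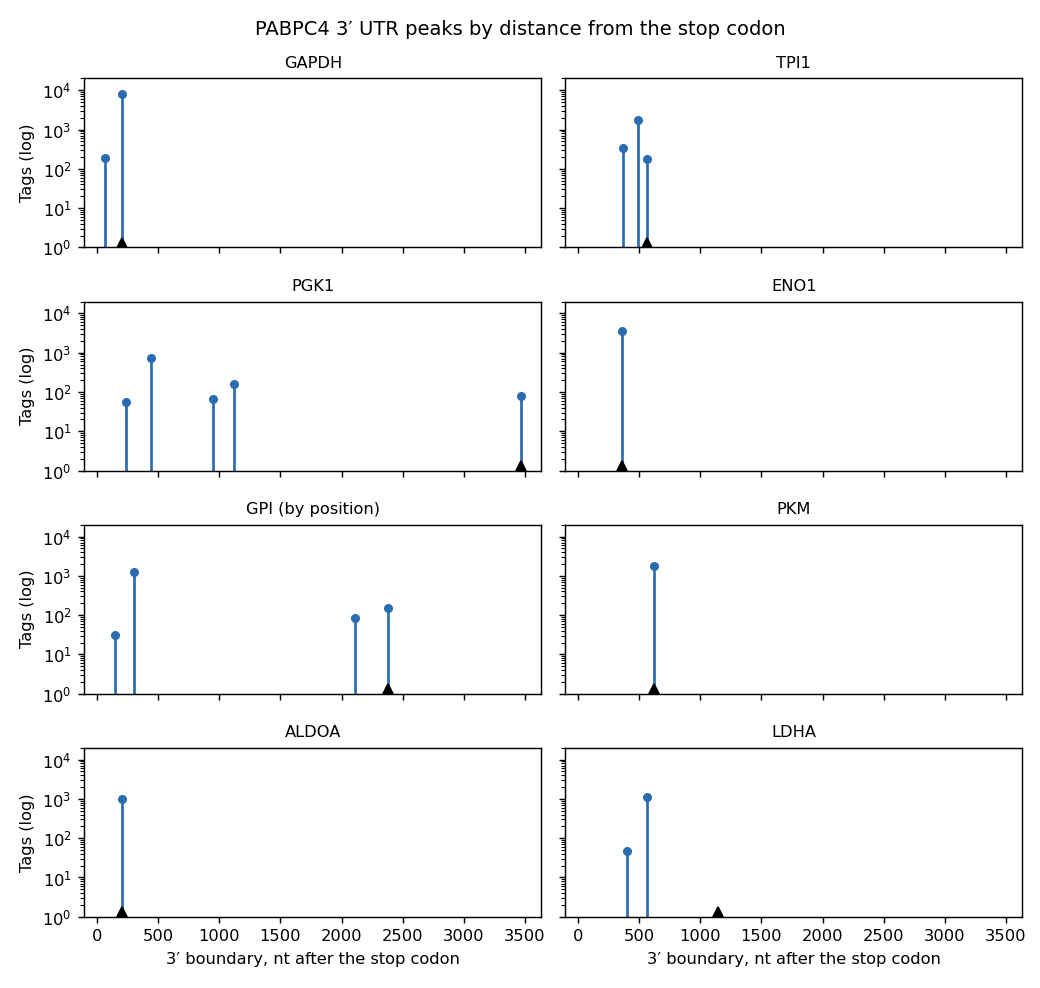
Each panel plots the height of a gene's PABPC4 3′ UTR peaks (tags, log scale) against the distance of the peak's 3′ boundary from the canonical stop codon (nt), and the black triangle marks the end of the canonical transcript. GAPDH has 1 dominant end, 7950 tags at 203 nt. PGK1 has peaks at 5 distances from 241 to 3464 nt, of which 3 are at annotated ends. Left out is 1 peak each of ENO1 and GPI that lies before the stop codon.

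The other members fell on both sides of PGK1 and all below GAPDH. Main ends were found for 7 of the 10 genes by gene ID, beside 43.1% of all 19210 protein-coding genes. ENO1, which makes phosphoenolpyruvate, had 3480 tags (3365 to 3598). PKM, the enzyme of the last ATP-forming step, had 1809 tags (1727 to 1894), and LDHA, which turns pyruvate into lactate, had 1127 (1062 to 1195). ALDOA, which splits fructose bisphosphate, had 992 (931 to 1056). GAPDH, ENO1 and PKM stood above 1655 tags, the 99th percentile of main ends, and the median over all genes was 68 tags with quartiles of 30 and 145.

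GAPDH exceeded each of the other main ends beyond counting error. Its height was 2.28 times that of ENO1 (2.19 to 2.38), 4.39 times that of PKM (4.18 to 4.63), 7.05 times that of LDHA (6.63 to 7.51), 8.01 times that of ALDOA (7.50 to 8.57) and 10.6 times that of PGK1 (9.81 to 11.4). The height of PGK1 was 0.758 times that of ALDOA (0.689 to 0.834) and 0.216 times that of ENO1 (0.199 to 0.234). In the order GAPDH, ENO1, PKM, LDHA, ALDOA, PGK1, TPI1, every neighbouring pair had Poisson intervals that did not overlap. TPI1 stands last there only through the 50 nt limit, since its tallest 3′ UTR peak, 64 nt from an end, had 1761 tags (1680 to 1845), with an interval that overlaps that of PKM. Whether these differences exceed the spread between replicates was not testable in a pooled list.

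**Figure D2:**
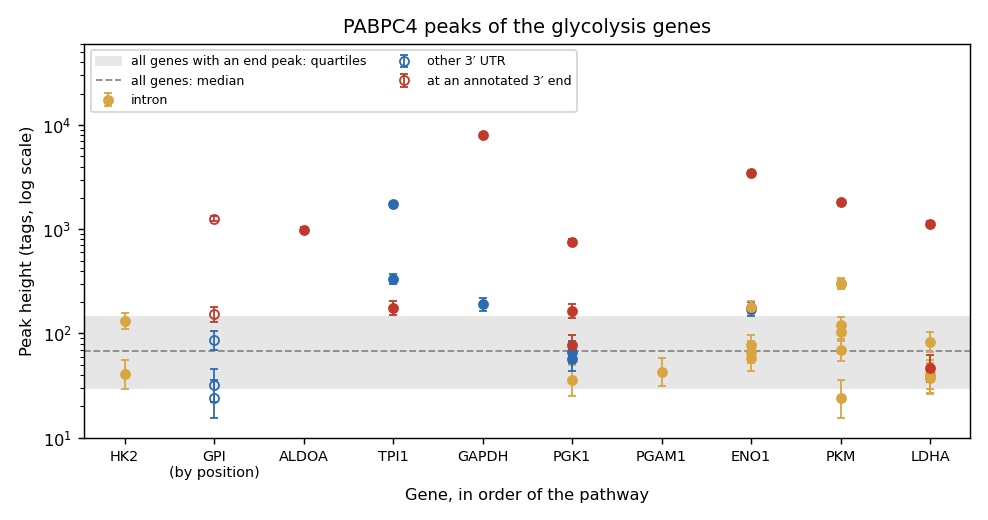
Height of each PABPC4 peak (tags, log scale) by gene in pathway order, with exact 95% Poisson intervals and colours for peaks at annotated ends, elsewhere in the 3′ UTR and in introns. The grey band gives the quartiles of the main end over all genes, 30 to 145 tags, and the GAPDH end at 7950 tags stands above those of all other members. Open symbols show GPI, whose peaks were listed under another gene.

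TPI1, which interconverts the triose phosphates, had a main end by the rule that was not its tallest peak. Its 3 peaks, all in the 3′ UTR, had 333, 1761 and 176 tags and ended 366, 492 and 561 nt after the stop codon. The peak of 1761 tags at chr12:6870758-6870875 held 77.6% (75.8 to 79.3) of the gene's tags and ended 64 nt before the nearest annotated end, outside the 50 nt limit. The main end by the rule was therefore the peak of 176 tags, 2 nt from an annotated end and with 7.75% of the tags. A run of A lay within 50 nt downstream of the tallest peak and inside the last one, whose final 30 nt are shown for that reason.
TPI1 at 561 nt (chr12:6870915-6870944, plus strand): aaaaaaaaaacaagaacaggtttctataac
The part of that run in the position of the tallest peak was not tested. Of the 9 members with a PABPC4 peak, 6 had their tallest one at an annotated end, beside 42.7% of all genes with a PABPC4 peak. Among genes with a main end these were 6 of 7 members, beside 60.8% of all.

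HK2, GPI and PGAM1 had no main end by gene ID. HK2, which phosphorylates glucose at the entry to the pathway, had 2 intron peaks of 133 and 41 tags and none within 200 nt of an annotated end. PGAM1, which moves the phosphate of phosphoglycerate, had 1 intron peak of 43 tags and likewise none at an end. The last 50 nt of the canonical PGAM1 transcript matched 13 other places in the genome over at least 45 nt, 7 of them with at most 2 mismatches. For HK2 there were 3 such places and 1 with at most 2 mismatches, for PKM 5 and 3, for GAPDH 38 and 1, and for PGK1 24 and 0. How the authors treated tags that match several places is not given in the sources used here, and the part of such copies in the missing or present ends was not tested. No peak of either protein was listed under the 102 pseudogenes named after these 10 genes. Pseudogene IDs were few in both lists, 208 for PABPC4 and 50 for HNRNPC. The share over all pseudogenes is not given here, so the absence is not read as a trait of these genes.

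GPI, which converts glucose phosphate to fructose phosphate, had 0 peaks under its own gene ID, but 5 PABPC4 and 2 HNRNPC peaks lay in its span on its strand. All of them were listed under PDCD2L, the next gene downstream, and no peak with that ID lay in PDCD2L itself. In order along the gene they had 24, 32, 1261, 86 and 153 PABPC4 tags. The peak of 1261 tags (1192 to 1333) at chr19:34400201-34400340 ended 304 nt after the stop codon, 5 nt past the nearest annotated end, and the peak of 153 tags at 2377 nt ended at the annotated end of the canonical transcript. Read by position, GPI thus had a main end taller than those of LDHA, ALDOA and PGK1, with 81.0% of the tags of the peaks in the gene. It is left out of the counts by gene ID.

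The number of separate 3′ UTR peaks also differed between PGK1 and GAPDH, but the counts do not rest on an equal limit. The caller sets an expected peak height for each gene, for PABPC4 103 tags for GAPDH and 1.39 for PGK1. The PGK1 peaks of 57, 67 and 78 tags lay below the value for GAPDH. The part of this limit in the counts was not tested. Counting those with boundaries over 50 nt apart, PGK1 had 5, TPI1 had 3, GAPDH, ENO1 and LDHA had 2 each, and ALDOA and PKM had 1. So 5 of the 7 members with a 3′ UTR peak had 2 or more, beside 50.7% of all genes with such a peak. PGK1 was among the 6.9% of genes with 5 or more. GPI, left out of these counts by gene ID, also had 5 such peaks by position. A separate peak need not be an end of its own. At annotated ends lay 3 of the 5 in PGK1, 1 of the 3 in TPI1, 1 of the 2 in GAPDH and in ENO1, and all in LDHA. The next tallest 3′ UTR peak of PGK1 was 21.8% of the tallest, against 2.40% for GAPDH, 4.17% for LDHA, 4.91% for ENO1 and 18.9% for TPI1. For ENO1 that peak, 171 tags at chr1:8866350-8866456, was in the 3′ UTR of a transcript subject to decay and upstream of the canonical stop codon. The LDHA main end lay 567 nt after the stop codon, short of the canonical end at 1144 nt, where no PABPC4 peak was listed. An A-rich stretch, 6 A in a row or 7 A within 10 nt, followed this LDHA end within 50 nt, and its part in the height was not tested.

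The share of a gene's tags at its main end was 100% for ALDOA, 86.3% (85.2 to 87.4) for ENO1, 82.1% (80.0 to 84.1) for LDHA and 66.2% (64.4 to 68.0) for PKM. PGK1 was thus close to PKM, and their intervals overlapped. What filled the rest differed between these genes. Intron peaks held 33.8% of the PKM tags and 3.12% of those of PGK1, and the remaining PGK1 tags were at other 3′ UTR peaks. The median share was 82.1% over the 5 other members with a main end and 40.2% over all genes with one.

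**Figure D3:**
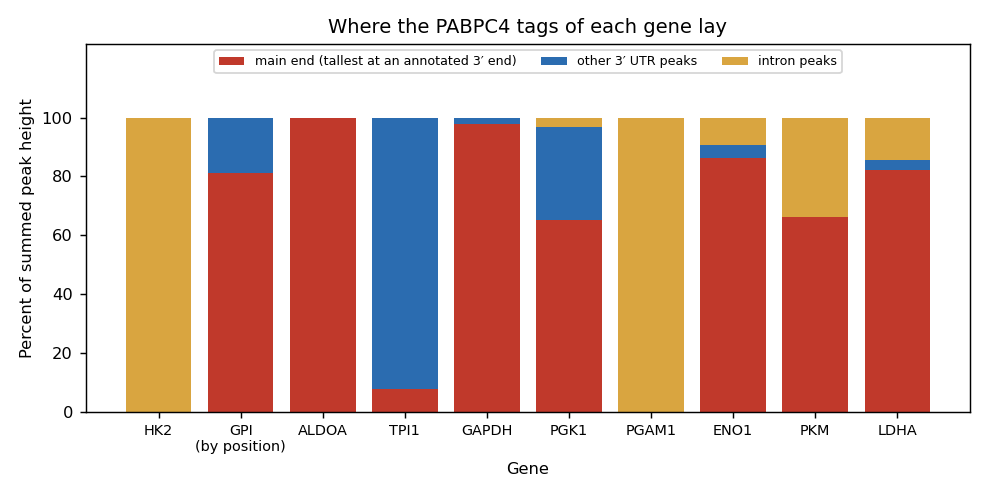
Bars split the summed PABPC4 peak height of each gene (percent) into its main end, its other 3′ UTR peaks and its intron peaks. GAPDH has 97.7% at the main end, PGK1 has 65.2% with most of the rest at other 3′ UTR peaks, and PKM has 66.2% with the rest, 33.8%, in introns. GPI is read by position.

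Introns held 18 of the 34 member peaks, or 52.9% (Wilson interval 36.7 to 68.5), but 8.40% of the summed height. Over the whole list, 37958 of 63507 PABPC4 peaks lay in an intron of a gene they were listed under. Intron peaks were thus common in the list at large. They were in PKM (6 peaks), ENO1 and LDHA (4 each), HK2 (2), PGK1 and PGAM1 (1 each), and their heights ran from 24 to 307 tags. Such an A-rich stretch followed 13 of the 18 within 50 nt, beside 70.9% of all PABPC4 intron peaks. In 3′ UTRs it followed 4 of 16, beside 33.6%. The letters GCCTGGGC, which occur in Alu repeats, were searched on the peak's strand in the peak and the 50 nt after it, and were present at 7 of the 18 intron peaks, beside 11.9% of all. Those 7 were in HK2, ENO1, PKM and LDHA. Whether tags at these peaks came from A-rich stretches inside introns or from tails at intronic ends was not tested. From 5′ to 3′ the intron peaks of PKM had 120, 104, 24, 307, 70 and 298 tags, those of ENO1 had 67, 78, 178 and 58, and those of LDHA had 83, 38, 41 and 37. Each was lower than the main end of its gene. The tallest, of 307 and 298 tags, were in PKM at chr15:72205643-72205774 and chr15:72205100-72205177.

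The tag density of the genes gives a measure per length. The peak caller sets for each gene an expected height from its own tags and its length, in tags. For PABPC4 the value was 103 for GAPDH, 27.0 for TPI1, 12.7 for ENO1, 4.57 for PKM, 4.47 for LDHA, 2.83 for ALDOA, 1.39 for PGK1, 0.37 for PGAM1 and 0.12 for HK2. The median over protein-coding genes with a peak was 0.19, so HK2 alone of these 9 lay below it. TPI1, a short gene, stood higher on this scale than in the order of main ends.

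**Figure D4:**
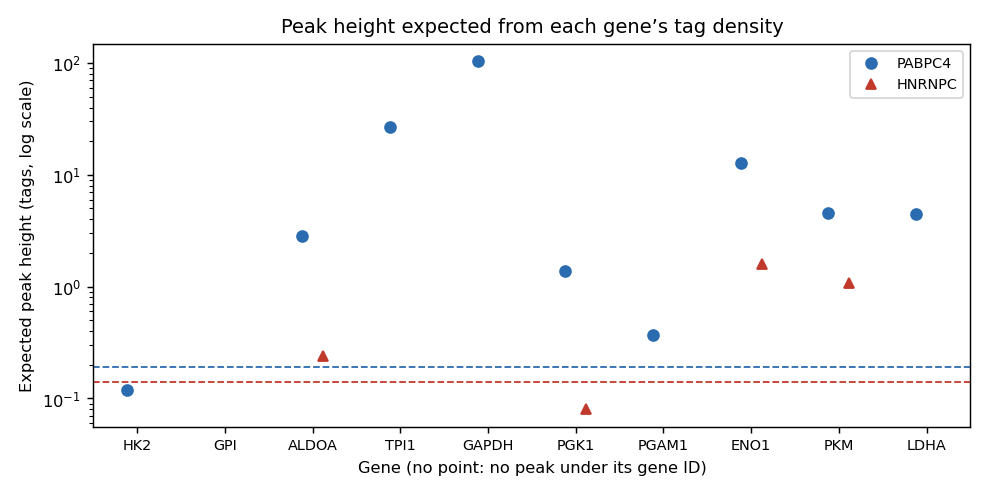
Expected peak height (tags, log scale) that the caller set from each gene's tag density, for PABPC4 (circles) and HNRNPC (triangles), with dashed lines at the medians of all protein-coding genes with a peak, 0.19 and 0.14. GAPDH is highest for PABPC4 at 103 and has no HNRNPC point, while ENO1 is highest for HNRNPC at 1.61.

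HNRNPC peaks lay under 4 of the 10 genes, with a median height of 19 tags against 11 over the whole HNRNPC list. ENO1 had 3 peaks, PKM 2, PGK1 1 and ALDOA 1, and HK2, TPI1, GAPDH, PGAM1 and LDHA had 0, as had GPI by gene ID. Of the 7 peaks, 4 were in introns, 2 in 3′ UTRs and 1 in a non-coding exon. The same split over the whole HNRNPC list is not given here. By gene span ENO1 had 1.65 HNRNPC peaks per 10 kb, ALDOA 1.59 and PKM 0.61. PGK1 had 0.046, or 0.399 over its canonical transcript, since 1 annotated transcript extends the locus to 219 kb.

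The tallest HNRNPC peak of the members, 66 tags (51.0 to 84.0) at chr1:8861242-8861424, was in the 3′ UTR of ENO1 and directly abutted the upstream edge of the main PABPC4 peak. Its centre lay 333 nt upstream of the main end. The HNRNPC peak of ALDOA, 8 tags at chr16:30070211-30070337, overlapped the main PABPC4 peak by 97 nt and its centre lay 141 nt upstream of the main end. Both ALDOA positions were listed under 8 gene IDs of the region, and the rows under ALDOA were used. ENO1 and ALDOA were thus 2 of the 10 genes with an HNRNPC 3′ UTR peak, beside 2.16% of protein-coding genes. The ALDOA peak was the weakest of the 7 HNRNPC peaks by the authors' p-value, and with the list limited to p-values of at most 0.001 only ENO1 had one. ENO1 and PKM had expected HNRNPC heights of 1.61 and 1.08 against a median of 0.14, so their tag densities were high in that list.

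The other HNRNPC peaks lay farther from the ends. ENO1 had intron peaks of 19 and 23 tags, with centres 17056 and 7370 nt upstream of the main end. PKM had 18 tags in an intron and 22 tags in a non-coding exon, 23611 and 2455 nt upstream of it. The PGK1 peak, 9 tags (4.12 to 17.1) at chrX:78106431-78106551, was in an intron, 19780 nt upstream of the main end. By position GPI had 2 HNRNPC peaks of 9 tags each in its 3′ UTR, 530 and 1314 nt after the stop codon and so between its 2 taller PABPC4 ends.

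The letters GTGTCA, taken up because earlier results of these data had ranked them high among HNRNPC peaks, were present in 3 of the 7 peaks, beside 28.9% of all HNRNPC peaks. They were searched on the strand of the peak. The stretches around them in PGK1, ENO1 and PKM are shown so that their surroundings can be compared, with the letters in capitals.
PGK1 (chrX:78106482-78106511, plus strand): ggcagccatgtgGTGTCAgctcaattcctt
ENO1 (chr1:8861287-8861316, minus strand): acccctcccctcGTGTCAgctcaggcagct
PKM (chr15:72201375-72201397, minus strand): tacaagtgtgcaGTGTCAgtgtt
The run of 5 T, the DNA form of the U run that HNRNPC binds, was in 1 of the 7, that of PGK1, beside 13.3% of all. No match says only that these letters are absent from the peak itself.

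**Figure D5:**
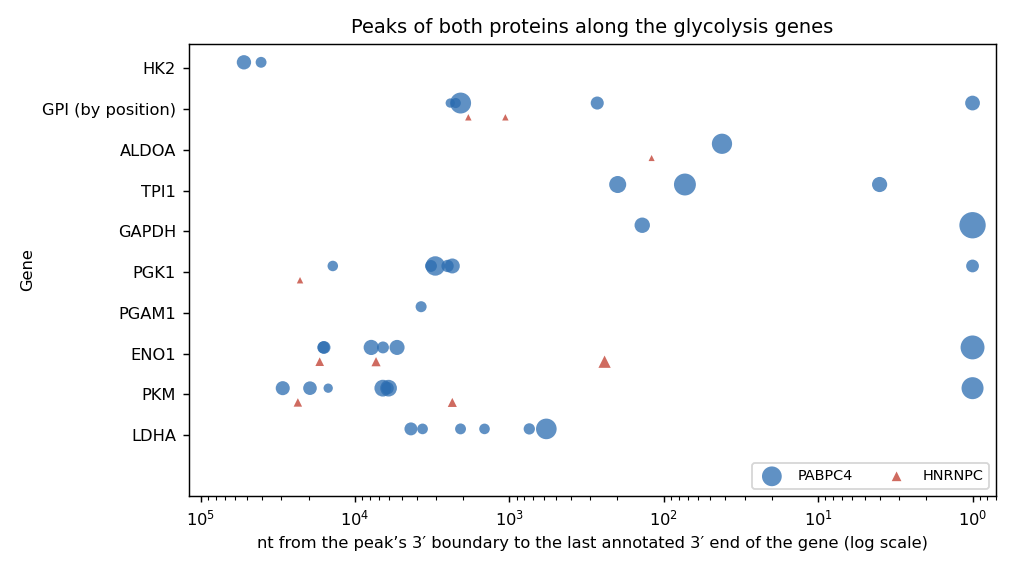
Peaks of PABPC4 (circles) and HNRNPC (triangles) by the distance of their 3′ boundary from the last annotated end of the gene (nt, log scale, end at the right), with symbol size rising with height. Only ENO1 (66 tags), ALDOA (8 tags) and, by position, GPI (9 tags each) have HNRNPC peaks in the 3′ UTR, and peaks that end at the last annotated end are drawn at 1 nt.

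Of 29 further genes of the pathway (isozymes, glucose and lactate transporters and regulators of phosphofructokinase), 16 had a PABPC4 peak and 11 a peak at an annotated end, while 13 had no peak of either protein. Among all protein-coding genes 61.4% had a PABPC4 peak and 43.1% one at an annotated end, so the 29 genes did not exceed these shares. Main ends of the 11 ran from 6 to 624 tags with a median of 185, against 752 for PGK1 and 7950 for GAPDH. The tallest were LDHB (624 tags), the other main lactate dehydrogenase subunit, SLC2A1 (425), the glucose transporter GLUT1, PFKL (386) and PFKP (366), subunits of phosphofructokinase, ENO2 (238), the neuronal enolase, and HK1 (185), a hexokinase. So each of these ends was lower than the main ends of all members that had one, except TPI1. SLC16A3, a lactate transporter gene, had no peak at an annotated end and so no main end. Its tallest PABPC4 peak had 713 tags, above the main end of LDHB and below that of PGK1. HNRNPC peaks were under 9 of the 29 genes, beside 19.8%, with 29 peaks in all. For 2 of the 29, beside 2.16%, one was in the 3′ UTR, namely HK1 (12 tags) and PFKFB3 (10 tags), an enzyme that makes the activator of phosphofructokinase.

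The cell line was checked against markers. The 4 genes expected in MDA-MB-231 (VIM, CD44, AXL and KRT18) all had a PABPC4 peak at an annotated end, with 301 to 10197 tags. Of the 4 expected to be low or absent, ESR1, PGR and GATA3 had none at an annotated end. Away from such ends, 2 PABPC4 peaks were listed under ESR1 and 4 under GATA3, while PGR had 0 peaks. CDH1, which encodes E-cadherin, had 3 peaks, of which 1 lay at an annotated end with 56 tags. That height lay between the quartiles of main ends over all genes, 30 and 145 tags, whose median was 68.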

How the data were processed

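HNRNPC irCLIP and PABPC4 PAPERCLIP were each made in 2 samples of MDA-MB-231 cells. For HNRNPC the authors collapsed reads on their molecular identifiers, extracted these with UMI-tools, trimmed with cutadapt, aligned to hg38 with BWA 0.7.17, removed duplicates, and ran the valley-seeking peak caller of the CLIP Tool Kit. The handling of the PABPC4 reads was not described separately. The deposited signal of each peak is its height in unique tags, pooled over both replicates and not scaled to depth, and the deposited rows also hold a gene ID, an expected height and the authors' p-value. Library depth was not analysed here, and the sequence of 1 main end is not reported here.

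Positions listed more than once were counted once (1281 surplus entries for HNRNPC and 6271 for PABPC4). No peak ran past a chromosome end of GRCh38. Gene IDs were matched to GENCODE 44 for 3997 of 4098 HNRNPC and 12775 of 13189 PABPC4 IDs. Peaks were assigned by their centre in the order 3′ UTR, coding sequence, 5′ UTR, non-coding exon and intron. Ends of transcripts marked as incomplete were not used. Copies of transcript ends were searched with BLAST 2.17.0, and other steps used Python 3.11.15, pandas 2.3.3 and scipy 1.17.1. The assignment to main ends was tested on simulated data with planted peaks. The named genes were all 10 members and the 2 genes ranked next above and below GAPDH and PGK1. Of the further pathway genes, those with the 6 tallest main ends or an HNRNPC 3′ UTR peak were named. SLC16A3 was added for its tallest peak. The members and lists were chosen with earlier results of these data known. Replicates were pooled, so counts and exact intervals were given without tests between genes.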

Additional observations from a re-analysis of the deposited data

How the results depend on the processing

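No paired analysis was possible because each deposited list pools both replicates, and for the same reason no replicate could be left out. Of 52 values recomputed under other settings, 43 stayed within 1.5 times the count or within the counting interval. The exceptions concerned PGK1, the shares, the number of separate peaks and the A-rich stretches at intron peaks. With only the ends of transcripts that have a coding sequence, a choice made after seeing the data, the main PGK1 end fell to 164 tags and 14.2% of the gene's tags. Without peaks followed by an A-rich stretch the PGK1 share was 70.9% and the median of the other members 87.0%, but TPI1 then had no main end and the LDHA main end was its peak of 47 tags, 27.5% of its tags. With peaks assigned by position, which adds peaks listed under a neighbouring gene, the PGK1 share was 56.7%. With 3′ UTR peaks only, the median share of the other members was 96.0%. Counting only peaks of at least 5% of a gene's tallest left GAPDH with 1 separate 3′ UTR peak and 1 other member with 2 or more, while PGK1 kept 5. With an A-rich stretch defined as 6 A in a row within 20 nt, 4 of the 18 intron peaks had one. The cause was not tested beyond the settings' own construction. GAPDH kept its main height of 7950 tags in each setting run. HNRNPC heights of 8 and 9 tags leave wide counting intervals, and a gene with 0 peaks may hold tags below the caller's limit.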
